A study of Schizosaccharomyces pombe with 16 samples.

Results

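A set of 10 regulators of sexual differentiation that both mating types of the fission yeast Schizosaccharomyces pombe share was followed: gpa1, rgs1, ste6, ste4, byr2, byr1, spk1, ste11, mei2 and fus1. They were chosen by gene symbol in the platform's probe-to-gene annotation. All 10 were measured, each by 1 probe set, among 4999 probe sets in all. Their systematic names in the annotation are SPBC24C6.06 (gpa1), SPAC22F3.12C (rgs1), SPCC1442.01 (ste6), SPAC1565.04C (ste4), SPBC1D7.05 (byr2), SPAC1D4.13 (byr1), SPAC31G5.09C (spk1), SPBC32C12.02 (ste11), SPAC27D7.03C (mei2) and SPAC20G4.02C (fus1). The study profiled polyadenylated RNA on biotin-labelled Affymetrix arrays in wild type (L972) and in fcp1-452, a temperature-sensitive mutant of fcp1, which encodes a phosphatase of the RNA polymerase II tail. Cells were in the synthetic minimal medium EMM2 (+N) or in the same medium lacking nitrogen (-N), at 26 or 37 °C. The labels call the +N cultures logarithmically growing, apart from fcp1-452 at 37 °C, which they call incubated. The times spent at 37 °C or without nitrogen, the number of mutant clones and the mating types are not given in the sources used here.

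When nitrogen runs out, fission yeast cells of the M and P mating types exchange pheromones. The bound receptor acts through Gpa1, a G protein alpha subunit that carries the signal itself, and through Ras1 onto a MAP kinase cascade of Byr2, Byr1 and Spk1. The end point is Ste11, an HMG-box transcription factor that activates its own gene, mei2 and many mating genes, and that is held in check by nutrient signals through protein kinase A, TOR and Pat1. Mei2 is an RNA-binding protein that starts meiosis.

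The arrays came in 2 sets. In each +N group the array of set 1 and the first replicate of set 2 differed by far less than replicates did (r = 0.975 to 0.990 across probe sets, against 0.652 to 0.765 for replicate 2). They were averaged and counted as 1 sample, which left 2 samples in each of the 4 +N groups and 1 in each of the 4 -N groups. For the members, the duplicates differed by at most 0.27 (log2, spk1). The deposited values are ratios to each probe set's median, so levels cannot be compared between genes. Values are given as log2 ratios, where 0 is the median of the +N arrays, and replicate 1 is given before replicate 2. Differences are log2 differences ± SE from limma, fitted over all probe sets with the replicate number as a block. A gene passed the test at an adjusted p under 0.05. Single -N samples were assumed to vary as the +N groups do, and since the labels name no separate cultures, the p-values reflect the scatter of these samples alone, which may be technical. The fcp1 transcript did not pass between strains with nitrogen (-0.005 ± 0.12 at 26 °C and -0.24 ± 0.12 at 37 °C), and a transcript level does not check a temperature-sensitive allele.

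The G protein and its modifiers came first in the pathway. For gpa1, the +N samples of wild type held -0.04 and -0.15 at 26 °C and 0.22 and -0.18 at 37 °C, and those of fcp1-452 held 0.06 and -0.04 at 26 °C and 0.15 and 0.41 at 37 °C. Without nitrogen gpa1 stood at 1.98 in wild type and 1.88 in fcp1-452 at 26 °C, and at 1.28 and -0.33 at 37 °C. The starved mutant at 37 °C was thus the lowest of the 12 samples, while the other starved samples lay above all +N samples. Rgs1, which turns Gpa1 signalling down, had +N values of 0.10 and -0.44 (26 °C) and 0.56 and 0.13 (37 °C) in wild type, and of -0.06 and -0.34 (26 °C) and 0.05 and -0.24 (37 °C) in fcp1-452. The starved values of rgs1 were 2.68 and 2.95 at 26 °C and 0.77 and -1.15 at 37 °C, wild type first. Again the starved mutant at 37 °C was the lowest sample. Ste6 is the exchange factor that loads Ras1 with GTP during mating. Its gene had +N values of 0.06 and -0.06 (26 °C) and 0.14 and 0.83 (37 °C) in wild type, and of -0.22 and 0.06 (26 °C) and -0.59 and -0.37 (37 °C) in fcp1-452. Without nitrogen ste6 stood at 3.39 and 2.79 at 26 °C and at 1.50 and 0.86 at 37 °C, wild type first. All 4 starved samples were above all 8 samples with nitrogen.

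**Figure D1:**
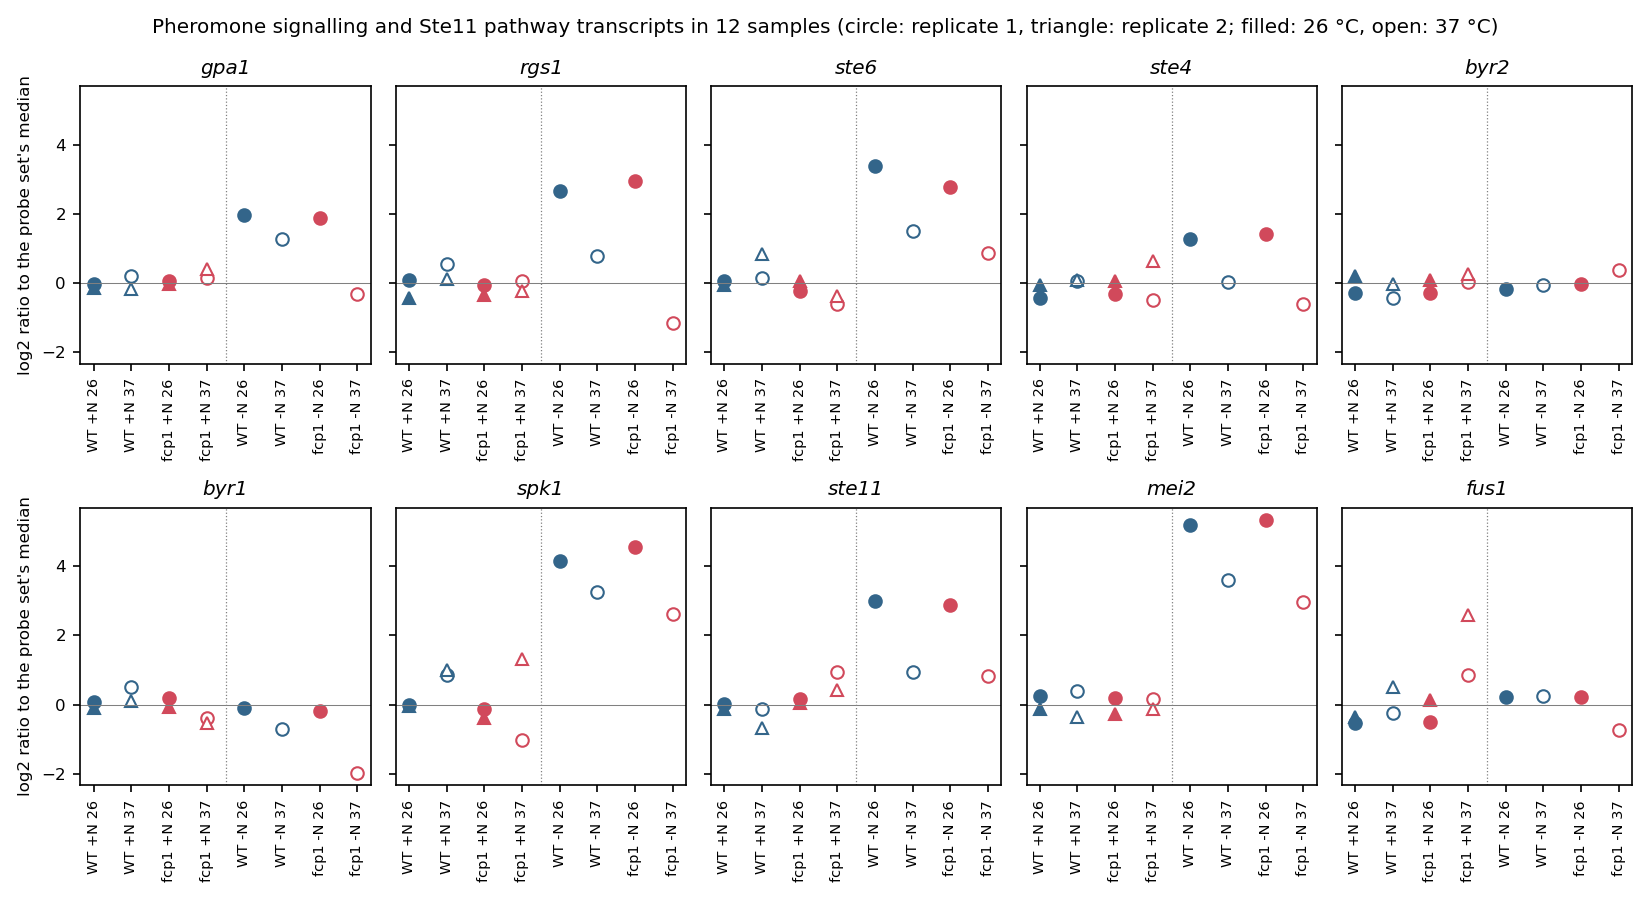
Log2 ratio of each of the 10 genes (vertical axis, 0 is the median of the +N arrays) in the 12 samples, grouped along the horizontal axis by strain, nitrogen and temperature in °C (fcp1 stands for fcp1-452). Blue is wild type and red is fcp1-452. At 26 °C the starved samples stand apart for 7 genes, for example mei2 at 5.21 and 5.34, while byr2 stays between -0.42 and 0.39 in all samples.

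The kinase cascade was uneven. Ste4, an adaptor that binds the kinase Byr2, ranged from -0.48 to 0.62 with nitrogen, and its starved values were 1.26 and 1.42 at 26 °C and 0.03 and -0.60 at 37 °C, wild type first. The transcript of byr2, the first kinase of the cascade, kept between -0.42 and 0.39 in all 12 samples, with the starved mutant at 37 °C highest and the other starved samples within the +N range. For byr1, the middle kinase, the +N samples held 0.08 and -0.09 (26 °C) and 0.50 and 0.11 (37 °C) in wild type, and 0.20 and -0.06 (26 °C) and -0.38 and -0.55 (37 °C) in fcp1-452. Starved byr1 values were -0.09 and -0.19 at 26 °C and -0.70 and -1.97 at 37 °C, so both starved samples at 37 °C lay below every other sample. The MAP kinase gene spk1 had +N values of -0.02 and -0.05 (26 °C) and 0.85 and 1.01 (37 °C) in wild type, and of -0.13 and -0.40 (26 °C) and -1.02 and 1.33 (37 °C) in fcp1-452. That last pair was 2.35 apart, the widest replicate gap of any member. Starved spk1 values of 4.16 and 4.58 at 26 °C and 3.26 and 2.62 at 37 °C were nevertheless above all +N samples.

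Downstream, ste11 itself had +N values of 0.02 and -0.12 (26 °C) and -0.14 and -0.69 (37 °C) in wild type, and of 0.16 and 0.03 (26 °C) and 0.93 and 0.43 (37 °C) in fcp1-452. Starved ste11 values were 2.99 and 2.87 at 26 °C but 0.95 and 0.84 at 37 °C, wild type first. Both starved samples at 26 °C were far above the rest, and those at 37 °C lay at about the fcp1-452 replicate 1 sample incubated with nitrogen at 37 °C. The +N values of mei2 ran from -0.36 to 0.40 over 8 samples. Its starved values were 5.21 and 5.34 at 26 °C and 3.60 and 2.97 at 37 °C, all far above the samples with nitrogen. Fus1, the formin that builds the actin structure for cell fusion, had +N values of -0.52 and -0.37 (26 °C) and -0.25 and 0.50 (37 °C) in wild type, and of -0.51 and 0.15 (26 °C) and 0.85 and 2.59 (37 °C) in fcp1-452. Its starved values were 0.21 and 0.22 at 26 °C and 0.23 and -0.73 at 37 °C. The highest fus1 values were thus those of the mutant with nitrogen at 37 °C, and none of the starved samples stood above the +N range.

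Starvation at 26 °C raised the same 7 genes in wild type and in fcp1-452, namely gpa1, rgs1, ste6, ste4, spk1, ste11 and mei2, and 23.3% of all 4999 probe sets were called higher in each strain. In these bulk samples, more RNA per cell and more cells that express a gene cannot be told apart. The rise of mei2 was 4.92 ± 0.18 in wild type (30.3-fold, adjusted p = 0.000233) and 5.16 ± 0.18 in the mutant (35.6-fold, adjusted p = 0.000303). Of all probe sets, 0.34% and 0.20% had a larger difference. For ste11 the rises were 2.88 ± 0.19 (7.34-fold, adjusted p = 0.000574) and 2.61 ± 0.19 (6.11-fold, adjusted p = 0.000668). Ste6 rose by 3.52 ± 0.25 and 3.01 ± 0.25, and rgs1 by 2.65 ± 0.15 and 2.96 ± 0.15. The rise of spk1 was large but loosely measured, at 4.46 ± 0.80 and 5.12 ± 0.80. Gpa1 rose by 2.03 ± 0.21 and 1.83 ± 0.21, and ste4 by 1.73 ± 0.32 and 1.79 ± 0.32. The median of the 10 genes was 2.34 in wild type and 2.22 in fcp1-452, against -0.07 and -0.08 for all probe sets.

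The first 2 kinases of the cascade and the fusion formin were not among the 7. Byr1 stood at -0.21 ± 0.14 in wild type (95% interval -0.55 to 0.13) and at -0.39 ± 0.14 in fcp1-452 (adjusted p = 0.0592). Byr2 stood at 0.05 ± 0.14 and 0.24 ± 0.14, with upper 95% bounds of 0.38 and 0.57. Fus1 was at 1.07 ± 0.45 and 0.81 ± 0.45 and passed in neither strain (adjusted p = 0.0948 and 0.176). In order of size, mei2 and spk1 came first in both strains, and their gap of 0.46 ± 0.82 in wild type was within its error. The gap between ste6 and ste11 in wild type was 0.64 ± 0.31, and that between ste11 and rgs1 was 0.22 ± 0.24, again within its error. Ste4 lost its call without the replicate block, at 1.50 in wild type and 1.55 in fcp1-452 (adjusted p over the 15 alternatives 0.00129 to 0.0619 and 0.00112 to 0.0551). The other 6 rises kept theirs in both strains under all 15. Fus1 passed in both strains after quantile normalization and without either fcp1-452 +N sample at 37 °C.

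**Figure D2:**
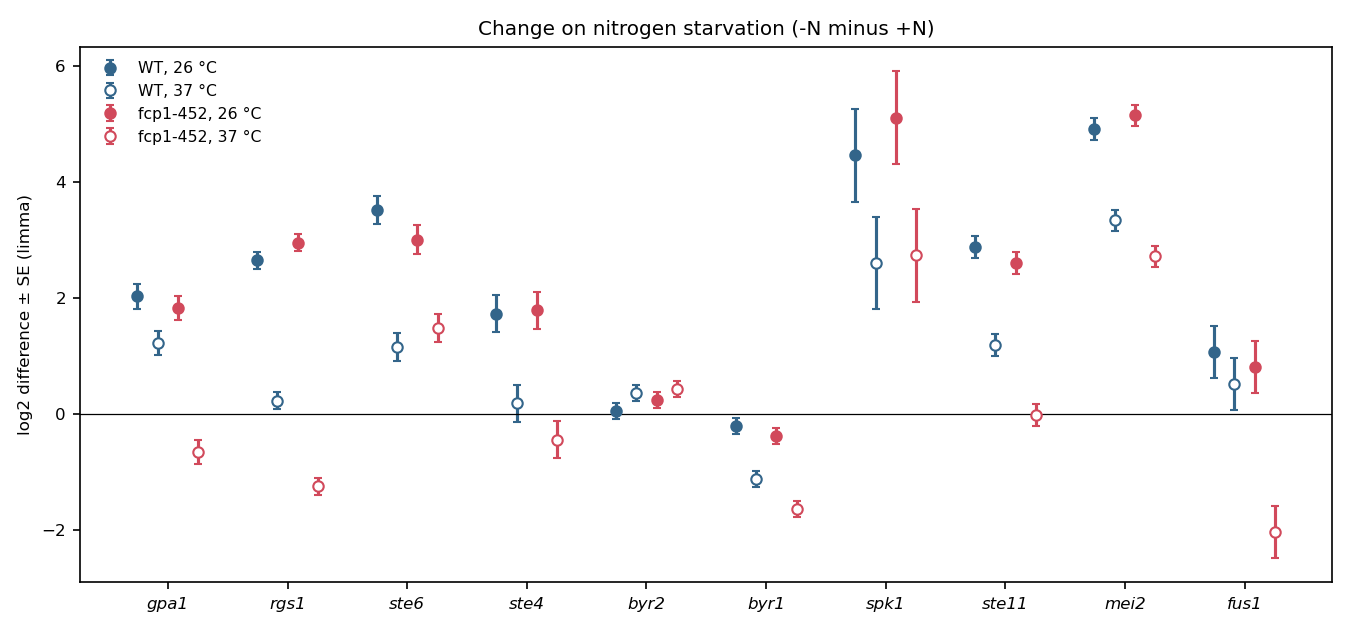
Change on nitrogen starvation for each gene (horizontal axis) in each strain and temperature, as the log2 difference of -N minus +N (vertical axis). Points are limma estimates and bars are 1 SE. The filled points (26 °C) of the 2 strains lie side by side, and the open points (37 °C) lie lower for most genes, below 0 in fcp1-452 for 6 genes, of which gpa1 (-0.66), rgs1 (-1.25), byr1 (-1.63) and fus1 (-2.04) fell, and ste11 (-0.01) and ste4 (-0.44) did not pass.

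At 37 °C starvation raised 5 of the genes and lowered 1 in wild type, where 23.8% of all probe sets were called higher and 28.2% lower. Mei2 rose by 3.34 ± 0.18 (10.1-fold, adjusted p = 0.000331), spk1 by 2.61 ± 0.80, gpa1 by 1.22 ± 0.21, ste11 by 1.20 ± 0.19 (2.29-fold, adjusted p = 0.00398) and ste6 by 1.15 ± 0.25. Byr1 fell by 1.13 ± 0.14 (adjusted p = 0.00178). The values of rgs1 (0.23 ± 0.15) and ste4 (0.18 ± 0.32) did not pass, and the upper bound for rgs1 was 0.59. Spk1 lost its call without the block (2.33) and without either +N sample of wild type at 37 °C (2.93 and 2.41, leaving out replicate 1 and replicate 2, adjusted p over the alternatives 0.000565 to 0.110). Ste6 lost it without the block (1.02) and without replicate 1 of those samples (0.81, adjusted p over the alternatives 0.00492 to 0.0622).

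In fcp1-452 at 37 °C the members went both ways on starvation. Mei2 (2.72 ± 0.18, 6.60-fold), spk1 (2.74 ± 0.80), ste6 (1.48 ± 0.25) and byr2 (0.43 ± 0.14) rose, and fus1, byr1, rgs1 and gpa1 fell. Of all probe sets 32.3% were called higher and 31.3% lower, so the members were near these shares in both directions. Ste11 stood at -0.01 ± 0.19 (95% interval -0.48 to 0.45, adjusted p = 0.951), so that a rise of the size seen in wild type at 37 °C lies outside its interval. Fus1 fell by 2.04 ± 0.45 (adjusted p = 0.00950), from the high +N values of the mutant at this temperature. Byr1 fell by 1.63 ± 0.14 (adjusted p = 0.000366) and rgs1 by 1.25 ± 0.15 (adjusted p = 0.000929). The median of the 10 genes was -0.23, against 0.04 for all probe sets. Byr2 lost its call under 9 of the 15 alternatives (adjusted p 0.0121 to 0.569), and spk1 without the block. The fall of gpa1 (-0.66 ± 0.21) was lost under 6 of the 15, with -0.28 after quantile normalization (adjusted p 0.00711 to 0.256). The fall of rgs1 became -0.69 after that normalization and stayed called.

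Averaged over the 4 conditions, 8 genes rose and byr1 fell (-0.84 ± 0.08), where 33.9% of all probe sets were called higher and 38.2% lower. These averages ranged from 0.27 ± 0.08 for byr2 to 4.03 ± 0.10 for mei2, and fus1 did not pass (0.09 ± 0.25, adjusted p = 0.763). With the block, they set the starved samples against replicate 1 with nitrogen alone. Gpa1 averaged 1.11 ± 0.12, rgs1 1.15 ± 0.08 and ste4 0.81 ± 0.18, although none of them rose in the starved mutant at 37 °C. Byr2 lost its call under 6 of the 15 alternatives and stood at 0.08 without the block (adjusted p 0.00561 to 0.675), and ste4 lost its call without the block.

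The starved samples were next compared directly between temperatures. In starved wild type, ste11 was lower at 37 than at 26 °C by 2.04 ± 0.21 on the log2 scale (4.12-fold, adjusted p = 0.0111), and rgs1 (-1.90 ± 0.16), ste6 (-1.88 ± 0.27) and mei2 (-1.61 ± 0.20) were lower too. These 4 were among only 43 probe sets, 0.86% of all, that were called lower there. The other 6 members did not pass, among them ste4 (-1.24 ± 0.36), gpa1 (-0.70 ± 0.24) and spk1 (-0.90 ± 0.89). In starved fcp1-452, 7 members were lower at 37 °C and 27.4% of all probe sets were. Rgs1 was lower by the most (-4.10 ± 0.16, 17.1-fold, adjusted p = 0.000370), then mei2 (-2.37 ± 0.20), gpa1 (-2.21 ± 0.24), ste11 (-2.04 ± 0.21), ste4 (-2.02 ± 0.36), ste6 (-1.93 ± 0.27) and byr1 (-1.78 ± 0.15). No member was called higher at 37 °C in either strain without nitrogen. Beside these, 3 of 8 M cell marker probe sets and none of 5 for P cells were lower at 37 °C in starved wild type, and 4 of 5 for P cells and 2 of 8 for M cells were lower in starved fcp1-452. In starved fcp1-452 another 2 of the 8 for M cells were higher at 37 °C. The share of all probe sets called higher there is not given here, so those 2 are not set against a background. The median of those 8 was 0.51, against 0.05 for all probe sets. The part of these markers in the members' values was not tested. The 4 calls in wild type became 0 without the replicate block, and 2 without either fcp1-452 sample at 26 °C with nitrogen. They became 8 without either fcp1-452 sample at 37 °C with nitrogen. The 7 calls in fcp1-452 ranged from 7 to 10. The share of all probe sets called under each alternative is not given here. Counts under the alternatives, here and below, are thus not set against a background.

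Whether starvation acted differently at the 2 temperatures was tested by the interaction within each strain. In fcp1-452 the starvation response was lower at 37 °C for 8 members, where 20.7% of all probe sets had a lower response. The differences ran from -1.25 ± 0.19 for byr1 to -4.21 ± 0.20 for rgs1 (adjusted p = 0.000874), with ste11 at -2.62 ± 0.26, gpa1 at -2.49 ± 0.29, mei2 at -2.43 ± 0.25 and fus1 at -2.85 ± 0.61. In wild type only ste6 (-2.37 ± 0.33, adjusted p = 0.0419) and rgs1 (-2.42 ± 0.20, adjusted p = 0.00708) passed, out of 0.24% of probe sets with a lower response. The wild-type values of ste11 (-1.68 ± 0.26, adjusted p = 0.0506) and mei2 (-1.58 ± 0.25, adjusted p = 0.0539) lay just past the threshold. The count in wild type became 0 without the block or without either wild-type +N sample at 37 °C, and 1 without any of the 4 +N samples at 26 °C. Without either fcp1-452 +N sample at 37 °C it became 7. In fcp1-452 it became 4 without the block. The counts in the 2 strains differ more than the sizes do. The median difference of the 10 members was -1.56 in wild type and -2.41 in fcp1-452, against -0.02 and 0.08 for all probe sets.

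Between the strains, no member passed in starved cells at 26 °C, where 0.10% of all probe sets were called by limma. The largest values were -0.60 ± 0.27 for ste6 and 0.42 ± 0.89 for spk1. None of the 10 had an unadjusted p under 0.05, against 75 of 4999 probe sets. The intervals were -0.63 to 0.40 for ste11 and -0.37 to 0.64 for mei2, so that differences within those bounds were not excluded. At 37 °C without nitrogen, fcp1-452 was lower than wild type in 4 members, rgs1 (-1.92 ± 0.16, adjusted p = 0.000737), gpa1 (-1.61 ± 0.24), byr1 (-1.28 ± 0.15) and mei2 (-0.63 ± 0.20, adjusted p = 0.0441), and 27.6% of all probe sets were called lower. Ste11 differed by -0.11 ± 0.21 there (95% interval -0.63 to 0.41). The call of mei2 was lost under 6 of the 15 alternatives. That of byr1 was lost after quantile normalization, where its difference was -0.65 (adjusted p over the alternatives 0.00106 to 0.0765). The count of 4 became 8 without either fcp1-452 sample at 37 °C with nitrogen.

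These strain comparisons carry a difference in mating-type markers. L972 is the standard h- laboratory strain, which is of the M type. All 5 probe sets that differed between the starved strains at 26 °C were markers, 3 of M cells and 2 of P cells. The M-factor gene mfm3 (2 probe sets, -4.89 ± 0.19 and -4.43 ± 0.21) and mam2, the receptor of M cells for P-factor (-4.82 ± 0.23), were lower in fcp1-452. The P-factor gene map2 (6.90 ± 0.33) and map3, the receptor of P cells for M-factor (2.23 ± 0.16), were higher. On starvation at 26 °C map2 rose by 6.29 ± 0.30 in fcp1-452 and stood at -0.43 ± 0.30 in wild type, while mam2 rose by 4.45 ± 0.21 in wild type and stood at -0.19 ± 0.21 in the mutant. The listed mating-type genes matPc, matPi, matMc and matMi were not measured under those names. Over the measured markers, starvation at 26 °C raised 6 of 8 M probe sets in wild type and 5 in fcp1-452, where mfm1 and mfm3 have 2 probe sets each. It raised 3 of 5 P probe sets in wild type and 5 in fcp1-452. In each strain 23.3% of all probe sets were called higher. Map3 fell in wild type (-0.46 ± 0.14). Both probe sets of mfm1 rose in fcp1-452 as well (4.6 ± 0.5 and 4.9 ± 0.5, against 8.1 ± 0.5 for each in wild type). Map1 rose in wild type (2.25 ± 0.33) and in fcp1-452 (2.09 ± 0.33). At 37 °C without nitrogen, 5 of 8 M probe sets were lower in fcp1-452, those of mfm1 (-4.14 ± 0.56 and -4.14 ± 0.57), mfm3 (-1.65 ± 0.19 and -1.52 ± 0.21) and mam2 (-1.14 ± 0.23). The P markers went both ways there, with map2 (1.57 ± 0.33) and map4 (1.14 ± 0.27) higher and map3 (-0.59 ± 0.16) and sxa1 (-0.65 ± 0.15) lower. Map3 thus had the opposite sign to that at 26 °C. Of all probe sets 27.6% were called lower in that comparison, and the share called higher is not given here. A probe set of each of mfm1 and mfm3 is of a design that can cross-hybridise with related genes. With nitrogen at 26 °C no marker passed between the strains. Mfm2, another M-factor gene, stood at -2.70 ± 1.63, and its wild-type replicates were far apart, at 5.24 and -0.03 at 26 °C and 5.16 and 0.40 at 37 °C, against 0.18 and -0.36 in fcp1-452 at 26 °C. In the comparisons of starved strains, which share their samples with those between temperatures, the fcp1 allele and these mating-type transcripts cannot be told apart.

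**Figure D3:**
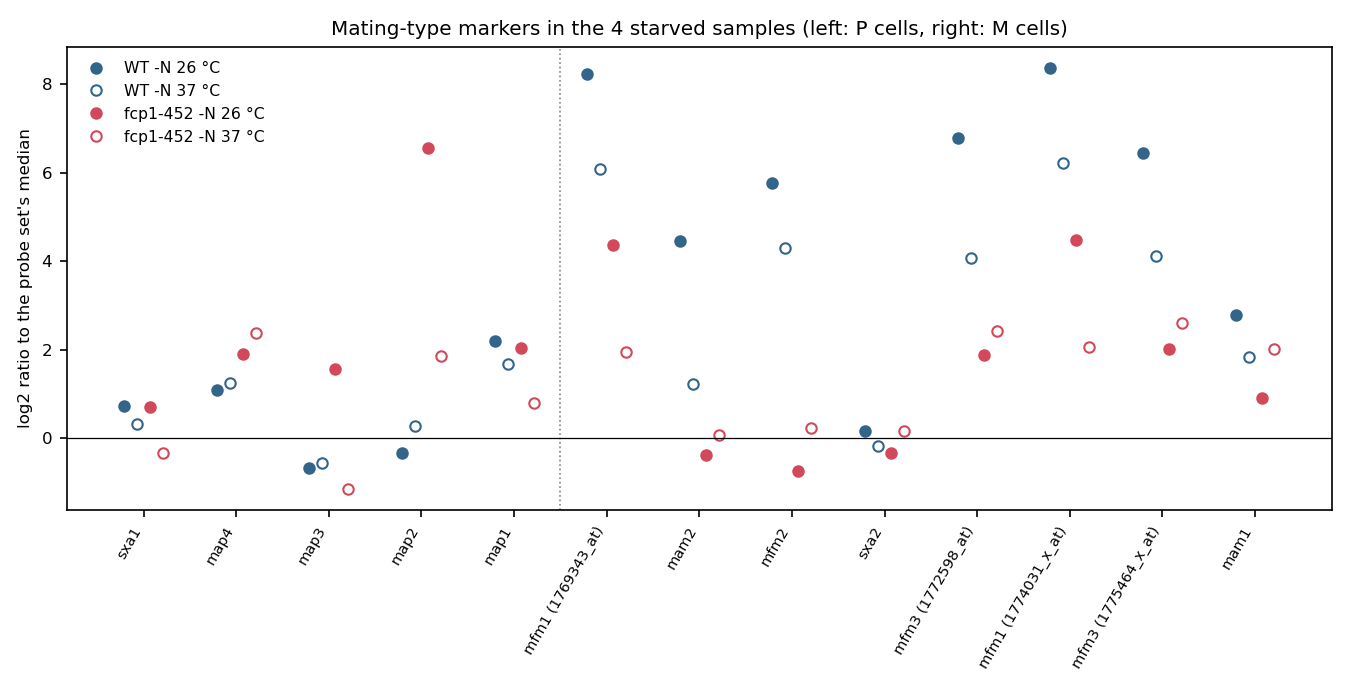
Log2 ratio (vertical axis, 0 is the median of the +N arrays) of the P cell markers (left of the dotted line) and M cell markers (right) in the 4 starved samples, with the probe set named where a gene has several. Blue is wild type, red is fcp1-452, filled is 26 °C and open is 37 °C. At 26 °C map2 and map3 are high in fcp1-452, and mam2 and mfm3 are high in wild type.

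The difference between the strains' starvation responses was tested as well. Averaged over the temperatures, the response was lower in fcp1-452 for gpa1 (-1.04 ± 0.20, adjusted p = 0.0288), ste11 (-0.74 ± 0.18, adjusted p = 0.0461) and rgs1 (-0.59 ± 0.14, adjusted p = 0.0423), where 8.54% of probe sets had a lower response. Split by temperature, in comparisons added after the values were seen, no member passed at 26 °C, where 0.10% of probe sets were called. At 37 °C the response was lower in the mutant for fus1 (-2.56 ± 0.61), gpa1 (-1.88 ± 0.29), rgs1 (-1.48 ± 0.20) and ste11 (-1.21 ± 0.26, adjusted p = 0.0162), and 17.7% of probe sets had a lower response. For mei2 (-0.62 ± 0.25, adjusted p = 0.0974), spk1 (0.13 ± 1.08) and ste6 (0.33 ± 0.33) the difference at 37 °C did not pass. The 4 lower responses were made up differently. Between the strains at 37 °C, ste11 differed by 1.10 ± 0.15 with nitrogen and by -0.11 ± 0.21 without. The same 2 values were 0.26 and -1.61 for gpa1, -0.44 and -1.92 for rgs1, and 1.60 and -0.96 for fus1. Among starved samples, the change from 26 to 37 °C was lower in fcp1-452 than in wild type for rgs1, gpa1 and byr1 (-2.19 ± 0.23, -1.52 ± 0.33 and -1.18 ± 0.22), where 16.9% of probe sets were. For ste11 it was 0.004 ± 0.30, with a 95% interval of -0.73 to 0.74. That count of 3 became 0 without the block and 6 without either fcp1-452 +N sample at 37 °C. The averaged count of 3 became 0 without the block, after quantile normalization and without any 1 of the 6 +N samples of wild type or of fcp1-452 at 26 °C, and 5 without replicate 2 of fcp1-452 at 37 °C. The count of 4 at 37 °C became 1 without the block, 2 when replicate 2 of wild type at 37 °C with nitrogen was left out, and 8 when replicate 1 of fcp1-452 at that temperature was.

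With nitrogen, 37 °C changed 3 members in the mutant. Against its own 26 °C samples, fus1 (1.90 ± 0.35, 3.74-fold, adjusted p = 0.0102) and ste11 (0.59 ± 0.15, 1.50-fold, adjusted p = 0.0264) rose and byr1 fell (-0.54 ± 0.11, adjusted p = 0.0134), where 17.8% of all probe sets were called higher and 22.1% lower. The 2 rises and 1 fall among the 10 members are near or below these shares. Mei2, a target of Ste11, did not pass and stood at 0.06 ± 0.14 (95% interval -0.30 to 0.42), ste6 at -0.40 ± 0.19, rgs1 at 0.11 ± 0.11 and gpa1 at 0.27 ± 0.17. In wild type the same shift called none of the 10, and 0.540% of all probe sets. The nearest was rgs1 at 0.52 ± 0.11 (adjusted p = 0.0951), and 3 members had an unadjusted p under 0.05, against 1029 of all probe sets. Without either fcp1-452 sample at 37 °C this count of 0 became 2, and after quantile normalization 1. At 26 °C limma called no probe set between the strains (0%). None of the 10 had an unadjusted p under 0.05, against 19 of all probe sets.

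At 37 °C with nitrogen fcp1-452 exceeded wild type in fus1 (1.60 ± 0.35), ste11 (1.10 ± 0.15, 2.14-fold, adjusted p = 0.00566) and byr2 (0.37 ± 0.11), and was below it in ste6 (-0.97 ± 0.19), byr1 (-0.77 ± 0.11) and rgs1 (-0.44 ± 0.11). Among all probe sets 14.7% were higher and 19.2% lower. Mei2 was at -0.005 ± 0.14 (95% interval -0.36 to 0.35). Of the M cell markers, mfm3 was higher (0.99 ± 0.13 and 0.94 ± 0.15) and mam2 (-0.66 ± 0.16) and sxa2 (-0.36 ± 0.11) were lower in fcp1-452 there, while no P cell marker passed, and their part was not tested. The difference between the strains' temperature responses passed for ste11 (0.95 ± 0.21, adjusted p = 0.0444) and byr1 (-0.85 ± 0.15, adjusted p = 0.0299), where 4.12% of probe sets had a higher and 7.68% a lower response. For fus1 it did not (1.33 ± 0.50, adjusted p = 0.133). These calls with nitrogen were fragile. Those of byr2 and rgs1 between the strains were each lost under 10 of the 15 alternatives (adjusted p up to 0.432 and 0.368). Without the replicate block the 3 temperature calls in fcp1-452, the 6 strain calls and the 2 interaction calls all became 0, and after quantile normalization they became 1, 2 and 0. Without either fcp1-452 sample at 26 °C the 3 temperature calls became 0, without either at 37 °C they became 5, and without either wild-type sample at 37 °C the 6 strain calls became 2. The 2 interaction calls became 0 without any 1 of those samples of wild type or of fcp1-452 at 26 °C, and 3 or 4 without fcp1-452 at 37 °C. Spk1 had no direction in the mutant, at 0.42 ± 0.63, and became -0.78 (called lower) without replicate 2 of fcp1-452 at 37 °C.

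**Figure D4:**
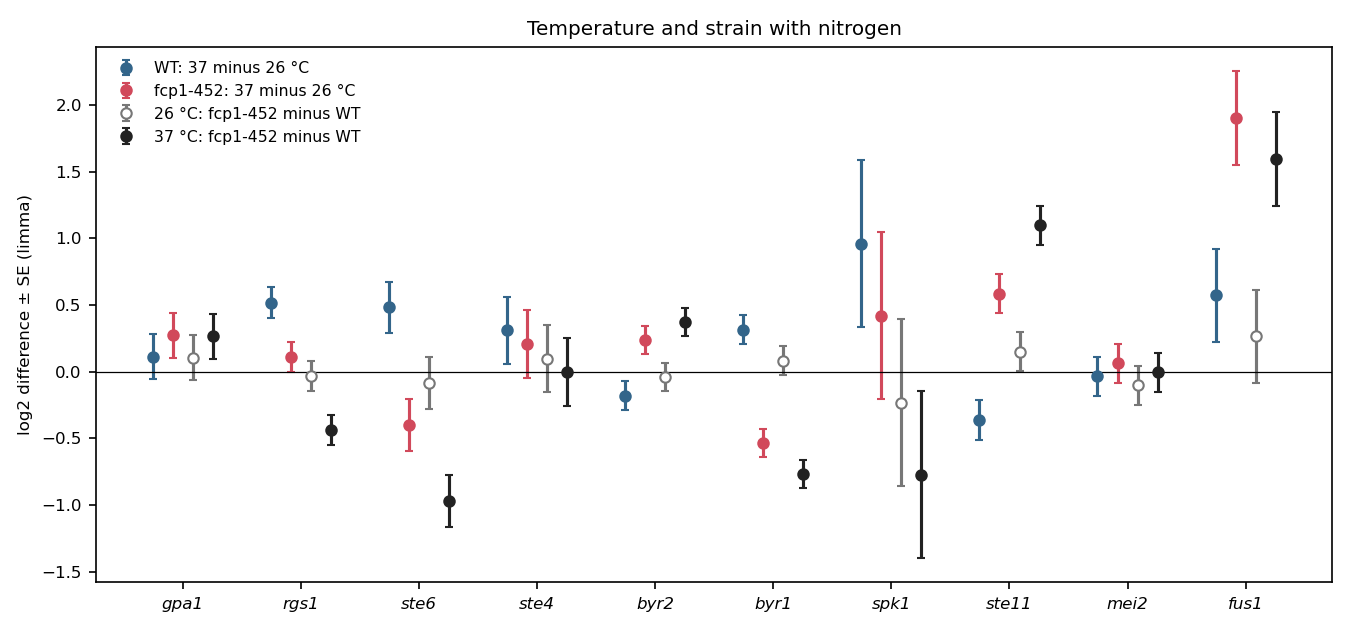
Differences with nitrogen for each gene (horizontal axis), as log2 differences (vertical axis) between temperatures within a strain and between strains at a temperature. Points are limma estimates and bars are 1 SE. In fcp1-452 at 37 °C fus1 and ste11 lie above 0 against both references, and byr1 lies below 0, while mei2 lies near 0 (0.06 and -0.005).

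Other genes of the pathway were counted by list. Of 32 measured regulators of ste11, starvation averaged over the conditions raised 24 and lowered 6 (median 0.73, against -0.03 for all probe sets), where 33.9% of all probe sets were called higher and 38.2% lower. The same shares and median stand beside the other lists in this comparison. The largest were pat1, the kinase that restrains Ste11 and Mei2 (2.69 ± 0.08), the stress factor gene atf1 (1.83 ± 0.12), rst2, an activator of ste11 (1.78 ± 0.11), and git1 of the cyclic AMP pathway (1.75 ± 0.07). In starved fcp1-452 at 37 °C, 23 of these 32 rose and 2 fell (median 1.37, against 0.04 for all probe sets), where 32.3% of all probe sets were called higher and 31.3% lower. Of 10 genes of the Ras1 and Cdc42 branch, the average starvation change was a rise in 5 and a fall in 3 (median 0.26), with the falls near the share of all probe sets. Ras1 itself fell (-1.31 ± 0.09), and the second Ras exchange factor gene efc25 (1.05 ± 0.09), the kinase gene shk2 (1.00 ± 0.24) and the Cdc42 exchange factor gene scd1 (0.94 ± 0.08) rose. Among 8 conjugation and cell fusion genes 3 rose and 3 fell (median 0.04), near the shares of all probe sets in both directions, and the largest values were those of ste7 (2.29 ± 0.19), tht2 of nuclear fusion (-1.07 ± 0.10), prm1 (0.88 ± 0.10) and cfr1 (0.71 ± 0.08).

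For 15 genes around meiotic entry the average change was a rise in 9 and a fall in 2 (median 0.55), with the meiotic transcription factor gene mei4 at 2.48 ± 0.13, num1 at 1.55 ± 0.27, ssm4 at 1.30 ± 0.40 and the poly(A)-binding protein gene pab2 at -1.29 ± 0.15. The mating-type specific list, measured by 15 probe sets of 13 genes, rose at 10 probe sets and fell at none (median 1.54), with mfm1 at 5.13 ± 0.29 and 5.08 ± 0.28. In fcp1-452 with nitrogen, where 37 °C gave 17.8% of all probe sets called higher and 22.1% lower, no list's counts of falls are read as particular to it. There 1 of the 32 regulators rose and 6 fell, among them cgs2, the cyclic AMP phosphodiesterase (-1.94 ± 0.16), the glucose-signalling G protein subunit genes git5 (-1.25 ± 0.18) and gpa2 (-0.97 ± 0.11), and lsc1, a cyclin gene of the RNA polymerase II tail kinase complex that acts on ste11 (-1.05 ± 0.10). In the Ras1 and Cdc42 branch 2 rose and 2 fell, including scd1 (0.99 ± 0.11), moe1 (-0.69 ± 0.17) and the Ras GTPase-activating protein gene gap1 (-0.64 ± 0.14). Of the fusion genes dni2 (1.18 ± 0.10) and tht1 (0.60 ± 0.12) rose and cfr1 fell (-0.49 ± 0.12), and of the meiotic entry genes num1 (1.37 ± 0.38) and mei4 (0.66 ± 0.18) rose. At 5 mating-type specific probe sets there was a rise and at 1 a fall, with mfm3 at 1.23 ± 0.15 and 1.13 ± 0.13, mam3 at 1.05 ± 0.17 and mam4 at -1.03 ± 0.18.

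Across the 12 samples, which these correlations share, the profile of mei2 was most like that of the GABA transaminase gene uga1 (r = 0.987), then sep1 (r = 0.971) and cao1 (r = 0.970). For ste11 the nearest named genes were ase1 (r = 0.941), mac1 (r = 0.933) and scd2 (r = 0.929), a Cdc42 scaffold. Spk1 was nearest to mel1 (r = 0.970), arc1 (r = 0.959) and tsc1 (r = 0.945), and ste6 to tsc1 (r = 0.939), nte1 (r = 0.935) and rfc1 (r = 0.932). Gpa1 was nearest to did4 (r = 0.956), rev7 (r = 0.955) and cyk3 (r = 0.953), and rgs1 to sxa1 (r = 0.951), ppk33 (r = 0.946) and fnx1 (r = 0.913). Ste4 was nearest to shk2 (r = 0.919), mug98 (r = 0.877) and cox9 (r = 0.874). Byr1 was nearest to rhp18 (r = 0.971), naa15 (r = 0.969) and vps66 (r = 0.963), byr2 to nog1 (r = 0.928), brx1 (r = 0.902) and yaf9 (r = 0.897), and fus1 to cid16 (r = 0.936), btb3 (r = 0.909) and aut12 (r = 0.905). Within the set, mei2 and spk1 correlated at r = 0.930, gpa1 and rgs1 at r = 0.928, and fus1 with ste11 at r = 0.070.

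By the RefSeq gene table of assembly ASM294v3, the 10 genes have 20 nearest protein-coding neighbours, of which 14 were measured. On starvation of wild type at 26 °C, 3 of the 14 rose, near the background, since 23.3% of all probe sets were called higher there. Another 4 fell, and the share of all probe sets called lower is not given here, so the falls are not set against a background. The gene beside ste11, ppk25, fell by 1.20 and that beside mei2, omt2, fell by 1.20. Beside byr2, mrpl7 fell by 0.89. The neighbour of spk1, hem4, fell by 1.95, while the gene on its other side, eta2, stood at 0.21 and did not pass. The rises were tsc1 beside rgs1 (1.86), hri1 beside fus1 (0.88) and tho2 beside byr1 (0.56).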

How the data were processed

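Expression was measured on 16 arrays of 8 groups. The submitters' processing notes name RMA without giving a version. The authors' deposited values are linear ratios: within each set of 8 arrays every probe set has a median of 1. The lowest deposited ratio, 0.01, was held by 4 of 79984 values. Signal over background is not known from ratios, and the number of arrays limits the precision. A single gene was named for 2917 probe sets, 20 had several and 2062 were unnamed here. Of these 2917, 2914 were found in the RefSeq table.

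Set 1 was put on the scale of set 2 by the mean log2 difference over the 4 duplicate pairs, and duplicates were averaged. Log2 values were fitted with limma 3.58.1 (lmFit, eBayes) in R 4.3.3, with 8 group means and the replicate number as a block (3 residual and 2.75 prior degrees of freedom). Adjusted p-values are limma's, by Benjamini-Hochberg over 4999 probe sets. The replicate numbers pair the samples: the difference between replicates correlated between groups at r = 0.640 to 0.870 across probe sets, over 6 pairs of groups. All -N samples belong to set 1, and they were taken to be of replicate 1 because the +N arrays of that set matched replicate 1. The labels give the -N samples no replicate number, so this is an assumption on which the starvation comparisons with the block rest. The fit was tested on simulated data.

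There were 17 planned comparisons and 3 added later. The named genes were every member, up to the 4 largest called genes of each of 5 other lists in 2 comparisons, and the 3 named genes most correlated with each member. The members, lists and design were chosen with earlier results of these data known. The 15 alternatives were no replicate block, 16 arrays with set as a term, quantile normalization, set 1 arrays alone as replicate 1, an added 0.1 before the log, robust eBayes, adjustment over named probe sets, and leaving out each of the 8 +N samples.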

Additional observations from a re-analysis of the deposited data

Results flagged for a closer look

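Some responses differed between groups by a test of the difference itself, in limma's fit, and each is given as a log2 difference with no explanation. With nitrogen, the change from 26 to 37 °C was higher in fcp1-452 than in wild type for ste11 (0.95 ± 0.21) and lower for byr1 (-0.85 ± 0.15). Without nitrogen, in a comparison added after the values were seen, it was lower in fcp1-452 for byr1 (-1.18 ± 0.22), gpa1 (-1.52 ± 0.33) and rgs1 (-2.19 ± 0.23).

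The response to starvation was lower at 37 than at 26 °C in wild type for ste6 (-2.37 ± 0.33) and rgs1 (-2.42 ± 0.20). In fcp1-452 it was lower at 37 °C for ste11 (-2.62 ± 0.26), mei2 (-2.43 ± 0.25), byr1 (-1.25 ± 0.19), gpa1 (-2.49 ± 0.29), ste4 (-2.23 ± 0.44), ste6 (-1.53 ± 0.33), rgs1 (-4.21 ± 0.20) and fus1 (-2.85 ± 0.61).

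Averaged over the temperatures, the response to starvation was lower in fcp1-452 than in wild type for ste11 (-0.74 ± 0.18), gpa1 (-1.04 ± 0.20) and rgs1 (-0.59 ± 0.14). At 37 °C alone, again added later, it was lower for ste11 (-1.21 ± 0.26), gpa1 (-1.88 ± 0.29), rgs1 (-1.48 ± 0.20) and fus1 (-2.56 ± 0.61).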

How the results depend on the processing

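Of 200 member values, 83 were called, and all 83 kept their direction under the 15 alternatives, while 42 kept their call under all of them. Of the 117 that were not called, 35 changed sign under some alternative, and no direction is given for those. In 2 cases a value that was not called became called with the other sign: spk1 in fcp1-452 at 37 against 26 °C with nitrogen, at -0.78 without replicate 2 of fcp1-452 at 37 °C (1.62 without replicate 1), and the difference between the strains' starvation responses at 37 °C for spk1, at -1.07 without replicate 1 of that group (1.33 without replicate 2). The cause was not tested.

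Without the replicate block by which samples were paired, the members called became 5 (from 8) for starvation in fcp1-452 at 37 °C, 4 (from 8) for temperature by nitrogen in fcp1-452 and 1 (from 4) for strain by nitrogen at 37 °C. They became 0 for 37 against 26 °C in fcp1-452 with nitrogen (from 3), the strains at 37 °C with nitrogen (from 6), strain by temperature with nitrogen (from 2) and without (from 3), 37 against 26 °C in wild type without nitrogen (from 4), temperature by nitrogen in wild type (from 2) and the averaged strain by nitrogen (from 3). Quantile normalization gave 1 for 37 against 26 °C in wild type (from 0) and in fcp1-452 (from 3) with nitrogen, 2 for the strains at 37 °C with nitrogen, and 0 for strain by temperature with nitrogen and the averaged strain by nitrogen. Temperature by nitrogen in wild type became 4 with 0.1 added to the ratio and 1 when adjusted over named probe sets, and the averaged strain by nitrogen became 1 with 16 arrays and a set term.

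Leaving out each +N sample in turn gave 0 to 2 for 37 against 26 °C in wild type with nitrogen, 0 to 5 in fcp1-452, 2 to 7 for the strains at 37 °C with nitrogen, 0 to 4 for strain by temperature with nitrogen, 2 to 8 for 37 against 26 °C in wild type without nitrogen, 3 to 8 for the strains at 37 °C without nitrogen, 0 to 7 for temperature by nitrogen in wild type, 0 to 5 for the averaged strain by nitrogen, 2 to 8 for strain by nitrogen at 37 °C and 3 to 6 for strain by temperature without nitrogen. No -N sample was left out, each being alone in its group. The share of all probe sets called under each alternative is not given here, so shifts in these counts are not read as particular to the members.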

Other observations

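A pair of meiotic entry genes, named after their values were seen, was higher at 37 than at 26 °C in starved fcp1-452, where ste11 and mei2 were lower (mei3 1.62 ± 0.22, mei4 3.18 ± 0.26, adjusted p = 0.00240 and 0.000596 by limma). The pair did not stand alone in its list. Over the 15 meiotic entry genes this difference in starved fcp1-452 had a median of 1.005, against 0.05 for all probe sets, and ran from -1.10 to 3.19. In wild type none of the 15 meiotic entry genes passed between the temperatures without nitrogen or in the temperature by nitrogen test. No order is thus given there. In those comparisons only 0.86% and 0.24% of all probe sets were called lower, and the share called higher is not given here. The absence of calls is therefore not read as particular to this list. Mei3, whose product inhibits the kinase Pat1, was called higher on starvation at 37 °C in wild type (0.80 ± 0.20) and fcp1-452 (1.56 ± 0.20) and was not called at 26 °C (0.46 ± 0.20 and 0.05 ± 0.20). Mei4, a forkhead transcription factor of meiosis, rose by 3.14 ± 0.23 and 3.81 ± 0.23 at 37 °C and by 1.68 ± 0.23 and 1.28 ± 0.23 at 26 °C.

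Lsk1, the kinase of the RNA polymerase II tail that acts on ste11, rose on starvation in fcp1-452 at 37 °C (1.73 ± 0.20, adjusted p = 0.000950 by limma). It stood at 0.15 ± 0.20 and 0.27 ± 0.20 in wild type at 26 and 37 °C and at 0.01 ± 0.20 in fcp1-452 at 26 °C. Such a rise was not particular to lsk1 among the 32 measured regulators of ste11. Their median on starvation in fcp1-452 at 37 °C was 1.37 and their highest value 3.61, against a median of 0.04 for all probe sets.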
